A study of Homo sapiens with 4 samples.

Results

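The genes described here were listed at or near 0 in SKOV3 control cells and at a higher level in SKOV3 cells given TET1. They were chosen by level: at most 0.1 FPKM in SKOV3 control, at least 1 FPKM in SKOV3 TET1 and below 10 FPKM in HeyC2 control. FPKM is the number of sequenced fragments divided by transcript length and by the library's total, so its levels can be compared between genes as levels per length. The rule chose 211 of the 26506 genes measured, and would choose 318 on the TET1 values as deposited. SKOV3 and HeyC2 are human ovarian cancer cell lines. Cells of each line were transfected by lipofection with the pCMV6/TET1 expression plasmid (TET1-reprogrammed) or the empty plasmid (control) and kept in Geneticin. The 4 groups were SKOV3 control, SKOV3 TET1, HeyC2 control and HeyC2 TET1, with genotypes labelled wild-type (controls) or TET1 overexpressed, and 1 RNA-seq library each. Whether a transfected line came from 1 clone or a pool is not given in the sources used here. With 1 library per group, no difference below has a replicate check, and a gene that differs between a TET1 and a control library may differ for any reason that sets those libraries apart.

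TET1 is a dioxygenase that oxidises 5-methylcytosine to 5-hydroxymethylcytosine, the first step of active DNA demethylation. In cancer cells, many genes are silenced with methylated CpG sites around their start sites, and a cell can hold a gene silent for other reasons, such as the lack of a transcription factor. DNA methylation was not among the values analysed here. TET1 itself was at 0.43 FPKM in SKOV3 control, 1.80 in SKOV3 TET1, 0.20 in HeyC2 control and 0.52 in HeyC2 TET1, and was not a member.

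By their values, the deposited TET1 libraries had been multiplied by a constant that set GAPDH to its control level. All values here are given with that inferred scaling undone (division by 1.35 in SKOV3 and 3.23 in HeyC2). GAPDH was then at 2248.44 FPKM in SKOV3 control and 1670.9 in SKOV3 TET1, and at 5417.35 in HeyC2 control and 1674.92 in HeyC2 TET1. An estimated 6620000 to 7350000 fragments lay behind each library. At that depth the median member had an estimated 24.5 fragments in SKOV3 TET1, 157 of the 201 members with a known transcript length had at least 10, and 21 had fewer than 5, down to 0.7 for MLLT10P1. In SKOV3 control, members had up to an estimated 9.8 fragments (KIF26B). In bulk RNA, more cells with a transcript and more transcript per cell cannot be told apart. The epithelial markers KRT8, KRT18 and EPCAM were at 15.39 FPKM or above in both SKOV3 libraries, and CDH1 was at 2.24 in control and 6.3 in TET1. In contrast, KRT19 was at 255 in SKOV3 control and 0.46 in SKOV3 TET1. The part of this difference in the results was not tested. In HeyC2 control and TET1, KRT18 was at 378 and 379 FPKM, KRT8 at 476 and 386 and KRT19 at 0.62 and 1.59. EPCAM was at 0.38 or below there and CDH1 at 0. PAX8, a marker of Mullerian epithelium, was at 74.59 FPKM or above in all 4 libraries, and ERBB2 and MECOM of the same list at 6.17 or above. MUC16 was at 0.05 or below, and WT1 at 0.53 in SKOV3 TET1 and 0 elsewhere. Of the markers of other cell types, those of blood summed to between 1.51 and 3.17 FPKM per library, with 1 of 7 at 1 FPKM or above. Germ cell markers summed to at most 0.72, muscle markers to at most 3.15 and hepatocyte markers to at most 3.33. Neuronal markers summed to 42.9 to 77.0 FPKM, and mesenchymal markers, mainly VIM, to 874 to 7519. In HeyC2 the sum of endothelial markers went from 19.64 to 95.38, nearly all of it CDH5, and that of placental markers from 1.14 to 12.93.

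Members differed in the sequence around their start. A window from 250 bases before to 50 bases after the start was called CpG-rich when its GC content was at least 50% and its CpG count was at least 0.6 of that given by its C and G content. The sequences below are the windows of 6 members with high levels, chosen to show both kinds, 5′ to 3′ along the gene's strand, with every CpG in capitals. They come from RefSeq on GRCh38.p14. The first 3 are CpG-rich. The VWA5B2 window (chr3:184229335-184229634, plus strand) held 36 CpG, that of TMEM163 (chr2:134718951-134719250, minus strand) held 50 and that of NOTCH3 (chr19:15200946-15201245, minus strand) held 37. The other 3 are not CpG-rich. The COL11A1 window (chr1:103108473-103108772, minus strand) held 12 CpG, that of LEMD1 (chr1:205422007-205422306, minus strand) held 2 and that of CEACAM20 (chr19:44529626-44529925, minus strand) held 6.
VWA5B2: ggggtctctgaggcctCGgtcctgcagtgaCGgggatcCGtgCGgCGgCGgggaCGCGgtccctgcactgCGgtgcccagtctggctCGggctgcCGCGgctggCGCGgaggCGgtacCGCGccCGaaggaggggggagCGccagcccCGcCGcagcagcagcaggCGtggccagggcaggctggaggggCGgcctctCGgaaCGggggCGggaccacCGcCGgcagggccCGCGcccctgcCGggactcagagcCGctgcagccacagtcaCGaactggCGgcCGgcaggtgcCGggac
TMEM163: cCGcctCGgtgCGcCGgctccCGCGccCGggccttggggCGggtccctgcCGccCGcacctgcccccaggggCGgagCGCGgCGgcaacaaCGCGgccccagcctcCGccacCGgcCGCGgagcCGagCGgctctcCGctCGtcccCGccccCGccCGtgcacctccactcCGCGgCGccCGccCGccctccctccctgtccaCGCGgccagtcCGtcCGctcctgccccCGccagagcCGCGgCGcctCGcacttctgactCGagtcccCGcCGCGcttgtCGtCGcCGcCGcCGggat
NOTCH3: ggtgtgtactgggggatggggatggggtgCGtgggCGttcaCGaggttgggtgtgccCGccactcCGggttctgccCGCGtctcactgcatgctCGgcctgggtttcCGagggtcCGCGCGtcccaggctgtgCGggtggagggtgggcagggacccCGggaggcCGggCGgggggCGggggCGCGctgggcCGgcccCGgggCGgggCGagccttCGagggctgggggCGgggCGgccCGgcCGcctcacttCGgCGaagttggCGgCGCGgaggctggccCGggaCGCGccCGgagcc
COL11A1: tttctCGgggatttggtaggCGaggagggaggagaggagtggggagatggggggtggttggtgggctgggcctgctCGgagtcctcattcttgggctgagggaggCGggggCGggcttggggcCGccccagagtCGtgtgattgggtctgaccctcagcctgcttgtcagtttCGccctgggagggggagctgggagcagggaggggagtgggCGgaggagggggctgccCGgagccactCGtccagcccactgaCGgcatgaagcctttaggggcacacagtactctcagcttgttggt
LEMD1: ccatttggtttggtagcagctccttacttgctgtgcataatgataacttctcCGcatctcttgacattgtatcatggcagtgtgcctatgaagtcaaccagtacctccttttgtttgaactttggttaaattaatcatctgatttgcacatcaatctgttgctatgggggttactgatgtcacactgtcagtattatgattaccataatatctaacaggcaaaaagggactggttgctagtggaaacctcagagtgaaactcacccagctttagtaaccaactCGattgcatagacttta
CEACAM20: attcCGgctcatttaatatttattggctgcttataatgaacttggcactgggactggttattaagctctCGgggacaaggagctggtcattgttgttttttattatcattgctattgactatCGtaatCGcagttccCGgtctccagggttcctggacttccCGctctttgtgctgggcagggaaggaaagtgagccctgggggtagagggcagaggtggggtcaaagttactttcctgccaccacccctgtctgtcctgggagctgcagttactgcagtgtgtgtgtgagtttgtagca

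Over all protein-coding genes, the same windows were read from GRCh37, the build of the deposited values, at GENCODE start sites. Of 158 protein-coding members, 94 (59.5%) had a CpG-rich window. The share was 27.8% of the 5333 protein-coding genes that stayed silent by the same limits, and 88.4% of genes at 1 FPKM or above in both SKOV3 libraries. The members thus lay between the genes that stayed silent and the genes expressed throughout. The median CpG ratio was 0.71 in the members, 0.33 in the genes that stayed silent and 0.87 in the expressed genes. The 57 protein-coding genes that met the same limits in the opposite direction (silent in SKOV3 TET1, at least 1 FPKM in SKOV3 control) had a share of 43.9%. In the members, the share was close in genes expressed in HeyC2 and in genes silent there: 64.4% of 45 with at least 1 FPKM in a HeyC2 library, and 60.8% of 74 at or below 0.1 FPKM in both. Of the groups described below, CpG-rich windows were found in 12 of 15 developmental signalling genes, 10 of 11 transcription factors and 6 of 6 readthrough transcripts with a window, and in 0 of 3 plasma protein genes. The 5 histone windows missed the GC limit (at most 44.3% GC) but had a median CpG ratio of 0.95.

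**Figure D1:**
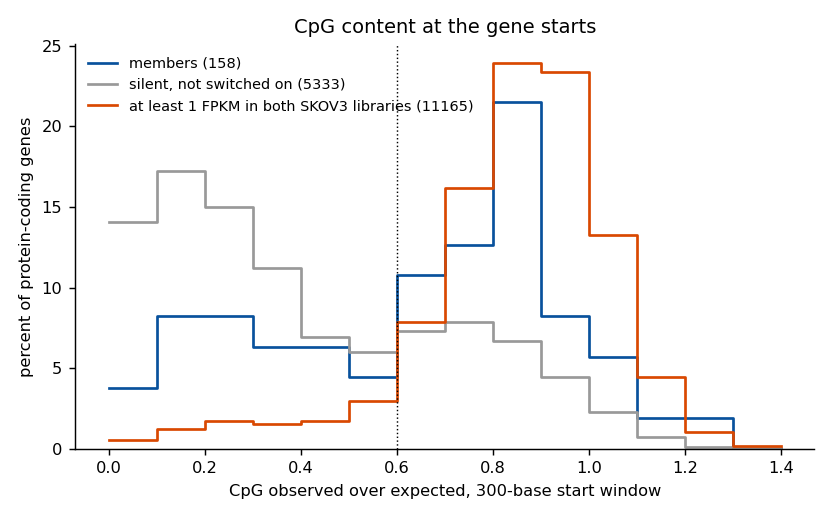
Percent of protein-coding genes (vertical axis) by the ratio of observed to expected CpG in the 300-base window at the start (horizontal axis, no unit), for 158 members, 5333 genes that stayed silent and 11165 genes expressed in both SKOV3 libraries. The dotted line marks 0.6, and the members peak with the expressed genes but keep a tail of CpG-poor starts.

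The rule passed 1.87% of the 11263 genes that were silent in SKOV3 control and below 10 FPKM in HeyC2 control. In SKOV3 control, 135 members were listed at 0 FPKM and 76 lay between 0 and 0.1. In SKOV3 TET1 the members ranged from 1 to 17.32 FPKM, with a median of 1.59. Most levels were low: 136 members lay below 2 FPKM, 19 reached 4 FPKM, and the median member stood at the 5.78th percentile of the genes at 1 FPKM or above in that library. All members together made up 0.103% of the summed FPKM. Just inside the limit, ADRB1 and LINC01232 were at 1 FPKM in SKOV3 TET1, and just outside it, ZMIZ1-AS1 and CFAP99 were at 0.99. PCDH17, a protocadherin, missed the rule through its control level (0.11 FPKM in SKOV3 control, 22.24 in SKOV3 TET1). COLEC12 (20.5 FPKM) and LGR5 (10.91 FPKM) missed it through HeyC2 control.

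The mirrored rule gives a yardstick for the number of members. Without the HeyC2 limit, 213 genes were switched on in SKOV3, which is 1.88% of the silent genes, and 84 were switched off (0.81%). Genes with a mean of at least 1 FPKM leaned the same way: in SKOV3 28.6% of them were at least 1.5-fold higher in TET1 and 11.5% lower, and in HeyC2 14.6% were higher and 7.41% lower. In HeyC2, 91 genes were switched on (0.739%) and 39 off (0.33%). Switched on means here at most 0.1 FPKM in control and at least 1 FPKM in TET1, and switched off the reverse. At a limit of 2 FPKM the counts were 76 on and 27 off in SKOV3, and 31 on and 12 off in HeyC2. At 4 FPKM they were 19 on and 14 off in SKOV3 and 11 on and 3 off in HeyC2, and at 8 FPKM 2 on and 3 off in SKOV3 and 4 on and 1 off in HeyC2. In SKOV3 most of the surplus of genes switched on thus lay below 4 FPKM.

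**Figure D2:**
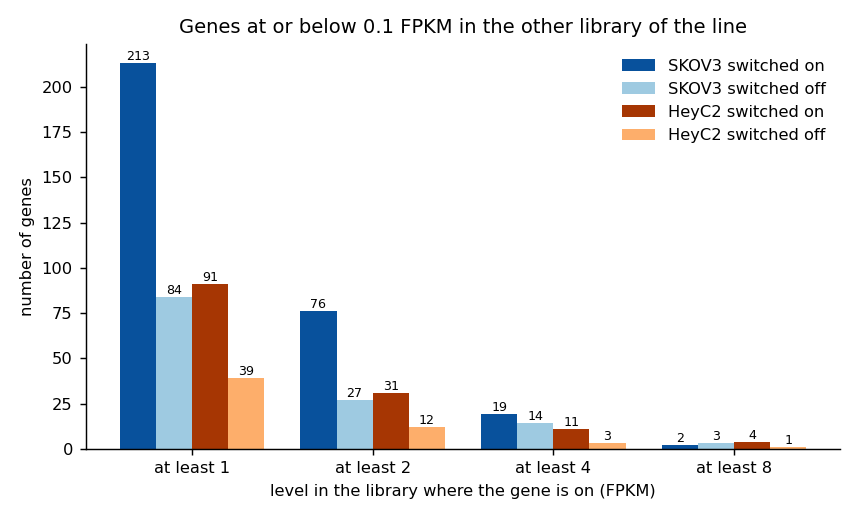
Number of genes (vertical axis) at or below 0.1 FPKM in 1 library of a cell line and at or above 1, 2, 4 or 8 FPKM in the other (horizontal axis), for genes switched on or off in SKOV3 and HeyC2. SKOV3 genes switched on were 213 at 1 FPKM and 2 at 8 FPKM, against 84 and 3 switched off.

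Family counts below are to be read against the 1.87% of all silent genes that were switched on, or the 2.88% of the 5491 protein-coding ones. The listed family of extracellular matrix and growth factors had 10 members of 143 silent genes (6.99%), and 4 of that family were switched off. The list was set by symbol. Its members include netrin, semaphorin and Wnt genes and IGF2, while HMCN1, EPYC and COMP, described next, are not on it. The member with the highest level was COL11A1, which encodes a chain of the fibrillar type XI collagen (GRCh37 chr1:103342023-103574428, minus strand). It was at 0.04 FPKM in SKOV3 control, 17.32 in SKOV3 TET1 and 0 in both HeyC2 libraries, or an estimated 2.1 and 819 fragments in SKOV3. This put COL11A1 at the 62.0th percentile of genes at 1 FPKM or above in SKOV3 TET1, a level ordinary for an expressed gene. HMCN1, the large matrix protein hemicentin (chr1:185703523-186160081), was at 0.05, 7.25, 0.02 and 0.12 FPKM in SKOV3 control, SKOV3 TET1, HeyC2 control and HeyC2 TET1, the order used for every set of 4 values below. The other matrix members were COL26A1, HAPLN2, EPYC and COMP, at 1.25 to 1.78 FPKM in SKOV3 TET1 and at most 0.09 in HeyC2. EPYC and COMP encode secreted proteins known from cartilage. Of the 11 fibrillar collagen genes, COL11A1 was the only member, but COL1A1 went from 0.32 to 27.66 FPKM in SKOV3, COL5A1 from 28.1 to 93.24 and COL27A1 from 1.51 to 15.48. COL11A2 went from 1.32 to 7.52 FPKM and COL1A2 from 0.13 to 2.12. COL5A2 did not follow, at 1.54 and 1.18 FPKM, nor did COL24A1, at 0.07 in both SKOV3 libraries. COL2A1, COL3A1 and COL5A3 were at 0.56 FPKM or below in SKOV3 TET1.

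Another group held secreted and surface proteins of the nervous system and of cell adhesion. LRRC4B, a synaptic adhesion protein with leucine-rich repeats, was at 0, 8.99, 0 and 0 FPKM. NTNG2, the netrin G2 adhesion protein, was at 0.1, 6.11, 5.05 and 5.85 FPKM, so its level in SKOV3 TET1 was like that of both HeyC2 libraries. CEACAM20 was at 0.09, 5.22, 0 and 0 FPKM, and its neighbour CEACAM22P, 12974 bases away, at 0.01, 2.53, 0.04 and 0.1. CBLN2, a secreted synapse organiser, was at 0.1, 4.08, 0 and 0 FPKM. SDK2, NTN5, IGSF9 and LINGO1, further adhesion or guidance proteins, were at 2.22 to 3.21 FPKM in SKOV3 TET1 and at most 0.68 in HeyC2. VTCN1, an immune checkpoint ligand, was at 1.58 FPKM in SKOV3 TET1 and 0 in the other 3 libraries. Of the family list of neuronal and synaptic genes, only 1 of 76 silent genes (CBLN2) was a member, and LRRC4B is not on that list.

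**Figure D3:**
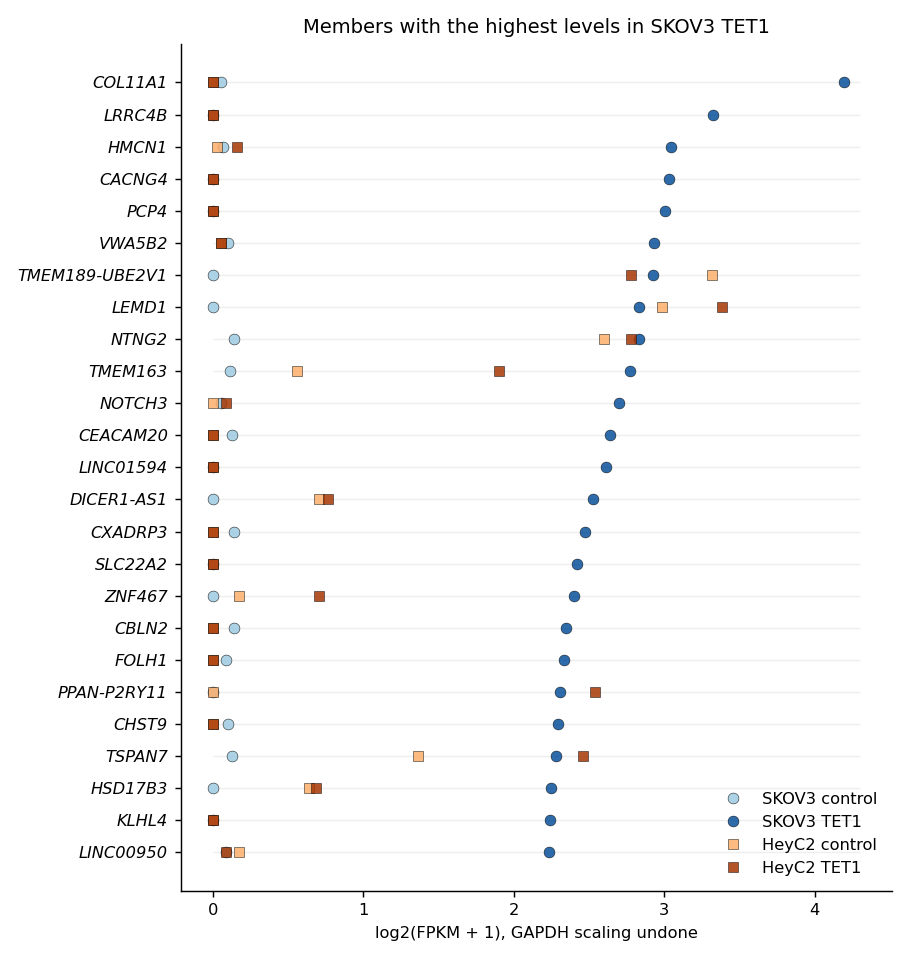
Level of the 25 members with the highest SKOV3 TET1 FPKM among those with at least 10 estimated fragments, as log2(FPKM + 1) (horizontal axis), 1 point per library. COL11A1 stands apart at 17.32 FPKM, and NTNG2, LEMD1, TMEM189-UBE2V1 and TSPAN7 were also at 1 FPKM or above in both HeyC2 libraries.

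Developmental signalling contributed 15 members, a group put together after the members were known. NOTCH3, a receptor of the Notch pathway in which a ligand on a neighbouring cell releases a transcriptional coactivator, was at 0.04, 5.49, 0 and 0.06 FPKM. The other receptors NOTCH1 (15.7 and 16.08 FPKM) and NOTCH2 (16.45 and 16.19 FPKM) had nearly equal levels in the SKOV3 libraries, and NOTCH4 was at 0.04, 0.07, 4.37 and 21.45 FPKM. Of 19 Wnt ligand genes, 9 were silent in SKOV3 control and 3 of these were members. WNT10B was at 1.91 FPKM in SKOV3 TET1, WNT6 at 1.18 and WNT11 at 1.03, and in HeyC2 only WNT11 was above 0 (0.5 FPKM in HeyC2 TET1). WNT5A, no member, went from 1.63 to 18.21 FPKM in SKOV3 and from 15.46 to 8.55 in HeyC2. Other Wnt ligand genes were lower in SKOV3 TET1, with WNT10A at 5.11 and 0.34 FPKM, WNT7A at 53.77 and 29.66 and WNT7B at 38.37 and 28.87. ROR2, a receptor for WNT5A, was at 0, 1.38, 0 and 0 FPKM. VANGL2, a membrane protein of planar cell polarity, was at 0.03, 2.52, 0 and 2.64 FPKM, and its relative VANGL1 was at 11.44 and 10.92 FPKM in the SKOV3 libraries. NKD2 and APC2, which act as inhibitors in Wnt signalling, were at 1.22 and 1.01 FPKM in SKOV3 TET1. IGF2, the insulin-like growth factor, was at 0, 1.07, 0 and 0 FPKM.

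Among hormones, chemokines and G protein signalling, the listed family of G protein-coupled receptors and peptide ligands had 7 members of 206 silent genes (3.40%). That of cytokines and chemokines had 3 of 138 (2.17%), and both shares were near that of all protein-coding silent genes. INSL3, ACKR3, GIPR and GLP2R, named below, are on neither list, so these counts cover only part of the group. Peptide ligands included UCN (urocortin), at 0, 3.04, 0.89 and 3.99 FPKM, INSL3 at 0, 2.64, 0 and 0, and KISS1 (kisspeptin) at 0, 1.94, 1.47 and 0. CRHR1, a receptor that binds urocortin, was at 0, 1.09, 0 and 0 FPKM. The chemokine receptors CXCR4 (0, 1.1, 0.18 and 0.39 FPKM) and ACKR3 (0, 1.4, 0 and 0 FPKM) share the ligand CXCL12, which went from 0 to 0.34 FPKM in SKOV3 and was at 0 in HeyC2. CCR10, another chemokine receptor, was at 0, 2.94, 3.01 and 6.46 FPKM. GIPR and GLP2R, receptors of gut hormones, were at 1.96 and 1.84 FPKM in SKOV3 TET1.

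Ion channel genes were 6 of 207 silent genes of their family (2.90%), close to the 2.88% of all protein-coding ones, and transporter genes 8 of 181 (4.42%). Neither family had a gene switched off. CACNG4, an auxiliary subunit of calcium channels and AMPA receptors (GRCh37 chr17:64960823-65029514), was at 0, 7.18, 0 and 0 FPKM. The sodium channel gene SCN9A was at 0.04, 1.14, 0.03 and 0.14 FPKM. TMEM163, a zinc transporter not on that family list, was at 0.08, 5.84, 0.47 and 2.74 FPKM. SLC22A2, the organic cation transporter OCT2, was at 0, 4.36, 0 and 0 FPKM. ABCC8, the sulfonylurea receptor, was at 0, 3.1, 0 and 0 FPKM, and KCNJ11, the potassium channel it regulates, went from 0.31 to 3.48 FPKM in SKOV3. ABCB1, the drug efflux pump P-glycoprotein, was at 0.09, 1.16, 1.76 and 0.87 FPKM.

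The enzymes spanned several pathways. FOLH1, the surface peptidase also called prostate-specific membrane antigen, was at 0.06, 4.04, 0 and 0 FPKM. CHST9, a carbohydrate sulfotransferase, was at 0.07, 3.9, 0 and 0, and HSD17B3, which makes testosterone from androstenedione, at 0, 3.74, 0.56 and 0.61. AKR1B10, an aldo-keto reductase, was at 0.1, 1.58, 0 and 0 FPKM. PCP4, a calmodulin regulator, was at 0, 7.01, 0 and 0 FPKM, with an estimated 16.9 fragments in SKOV3 TET1. Transcription factor members were led by ZNF467 (0, 4.27, 0.13 and 0.63 FPKM), and HOXC8 (1.91 FPKM in SKOV3 TET1) was the only homeobox gene of 112 silent ones. Of 10 members with a role in motile cilia or sperm, CFAP45 was the only one at 1 FPKM or above in HeyC2 (6.56 in control and 3.99 in TET1).

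Some families known for expression in 1 tissue gave few or no members. None of 410 silent olfactory, taste and vomeronasal receptor genes was switched on, and none of 189 keratin and epidermal genes, 60 muscle and cytoskeletal genes or 54 germline and meiosis genes. For the muscle and germline lists, which are short, a count of 0 is near the 1.87% of all silent genes. Of 165 cancer-testis antigen genes, a group that includes genes silenced by promoter methylation in somatic cells, only POTED was a member (0, 1.95, 0 and 0 FPKM). The growth hormone and placental lactogen genes GH1, GH2, CSH1, CSH2 and CSHL1 were listed at 0 in all 4 libraries. ALB (albumin), HPX (hemopexin) and SERPINA5, proteins of blood plasma, were at 1.23 to 1.59 FPKM in SKOV3 TET1, and the list of liver and plasma proteins had 4 members of 87 silent genes (4.60%). Of the other hepatocyte markers, APOB, TTR and FGB were listed at 0 in every library, APOA1 was at 0 except for 0.41 FPKM in HeyC2 TET1, and SERPINA1 was at 0.91, 1.82, 2.13 and 2.92 FPKM.

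Noncoding RNAs, by name, were the largest group, with 43 members. The annotation calls 3 of them protein-coding (LINC00950, NARR and TNRC6C-AS1), and these count among the 158 above. Of the 43, 38 fell in the antisense and long noncoding family (1.44% of its 2638 silent genes). LINC01594 was at 0, 5.12, 0 and 0 FPKM, and DICER1-AS1 at 0, 4.75, 0.63 and 0.7. Whether the fragments were counted by strand is not given in the sources used here, so reads of a member and of a gene overlapping it cannot be told apart. In all, 75 members overlapped a gene that was not a member, and 35 overlapped one on the opposite strand with at least 1 FPKM in SKOV3 TET1. Some of these partners were also higher in SKOV3 TET1. NR2F1-AS1 went from 0.06 to 2.48 FPKM, and NR2F1, a nuclear receptor gene on the other strand, from 0.12 to 6.16. PTPRD-AS1 went from 0 to 1.48 FPKM beside PTPRD (1.42 and 11.51), and STARD4-AS1 from 0.08 to 3.45 beside NREP (2.45 and 61.59). In contrast, DICER1 went from 9.06 to 6.16 FPKM and HM13, the partner of HM13-AS1, from 267 to 179.

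Some members share sequence with other genes, and their levels depend on how RSEM divided reads between copies. The readthrough transcripts, which join 2 neighbouring genes, were 8 of 54 silent ones (14.8%), and all of the parent genes had at least 1 FPKM in both SKOV3 libraries. TMEM189-UBE2V1 was at 0, 6.6, 8.96 and 5.86 FPKM, while its parent TMEM189 went from 37.65 to 15.1 FPKM in SKOV3. PPAN-P2RY11 was at 0, 3.94, 0 and 4.8, while PPAN went from 40.53 to 15.06. F8A2 and F8A3 had the same values (0, 3.51, 4.91 and 3.1 FPKM), and the third copy, F8A1, went from 83.35 to 53.89 FPKM in SKOV3. A shift of reads between copies or transcript forms was not tested. The pseudogenes CXADRP3 (4.56 FPKM in SKOV3 TET1) and CXADRP2 (1.52 FPKM) were members together with a higher level of their parent CXADR, a cell adhesion protein and virus receptor, which went from 0.27 to 12.7 FPKM in SKOV3 and was at 0 in both HeyC2 libraries. TBC1D3 (3.05 FPKM) stood beside its copy TBC1D3G (2.22 and 9.81 FPKM). Histone genes gave 6 of 50 silent genes (12%), but none of the 5 with an estimate had 10 fragments, and their levels in SKOV3 TET1 were 1.04 to 1.85 FPKM. Most histone mRNAs lack a poly(A) tail, and how the libraries selected RNA is not given in the labels beyond the kit's name.

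By position, 24 members lay within 200 kb of another member, in 12 pairs. These included TMEM163 with ACMSD (119616 bases apart), HMCN1 with LINC01350, NTN5 with FUT1, SLC17A7 with FCGRT, IGSF9 with CFAP45 and HPX with CCKBR. Of 843 other genes within 200 kb of a member and with a mean of at least 1 FPKM in SKOV3, 33.1% were at least 1.5-fold higher in SKOV3 TET1. The share was 27.4% of the 11776 genes farther away and 28.6% of all genes with such a mean. Genes that overlap a member also lie within 200 kb, and their reads cannot be told apart from the member's. The difference in shares was not tested. Chromosome 19 held 22 members (4.34% of its silent genes) and chromosome 18 held 8 (5.44%), while chromosome 3 held 2 (0.385%). Over all 9236 silent genes with a position the share was 2.18%, and it lay between 1 and 3.5% on 18 of 23 chromosomes.

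In HeyC2, the members were more often expressed than the genes that stayed silent, in control cells and in TET1 cells alike. At 1 FPKM or above there were 47 members (22.3%) in HeyC2 control and 46 (21.8%) in HeyC2 TET1, against 2.06% and 2.52% of the 11052 genes that stayed silent in SKOV3. There were 33 members at this level in both HeyC2 libraries. Another 96 members (45.5%) were at or below 0.1 FPKM in both, against 87.4% of the genes that stayed silent. Of all members, 79 were listed at 0 in both HeyC2 libraries. Gene type differed between these sets: 78.6% of annotated members were protein-coding, against 59.0% of annotated genes that stayed silent. Among protein-coding genes, 45 of 158 members reached 1 FPKM in a HeyC2 library, against 238 of 5333 that stayed silent. At or below 0.1 FPKM in both HeyC2 libraries were 74 of these members and 4458 of these silent genes. By functional group, those that reached 1 FPKM in a HeyC2 library were 0 of 6 matrix members, 4 of 15 developmental signalling members, 5 of 11 transcription factors and 4 of 6 histone genes, against 60 of all 211 (28.4%). Whether the groups differ was not tested.

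**Figure D4:**
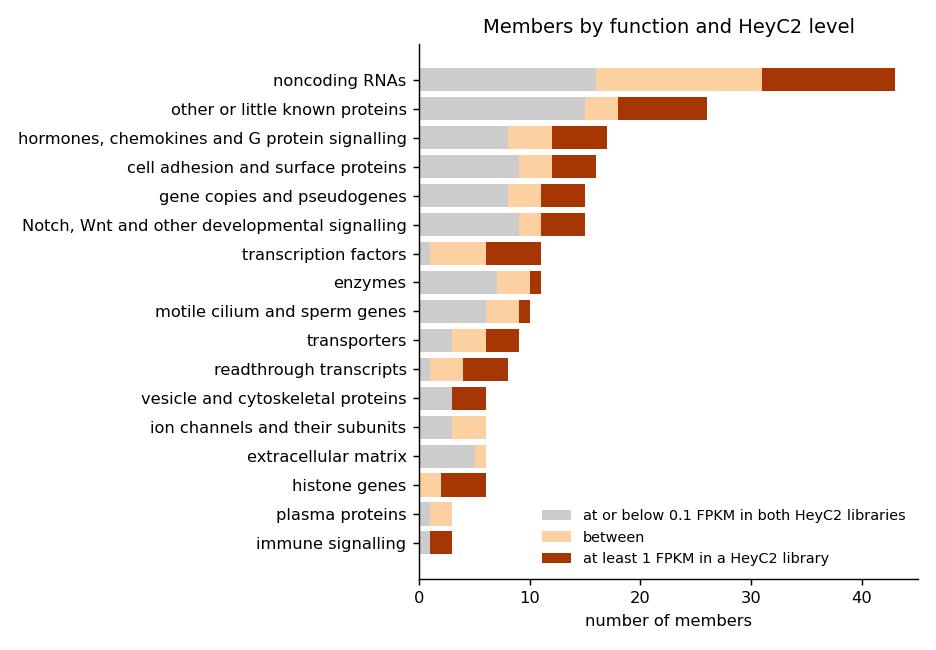
Number of members (horizontal axis) in each functional group, divided by their HeyC2 level into at or below 0.1 FPKM in both libraries, between, and at least 1 FPKM in a library. The groups are each member's main function and were assigned after the members were known, and 60 members in all reached 1 FPKM in a HeyC2 library.

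The difference between HeyC2 TET1 and control could be described for the 46 members with a mean of at least 1 FPKM over the HeyC2 libraries. It is given as a fold on the scale of FPKM + 1, which understates the change of low genes. Of these 46, 12 (26.1%) were at least 1.5-fold higher in HeyC2 TET1, 10 (21.7%) at least 1.5-fold lower and 24 neither. Among all 11896 genes with such a mean, 14.6% were higher and 7.41% lower, and among those with a mean from 1 to 10 FPKM, which is the range of these 46 members, 16.7% and 8.93%. The median log2 fold change of the 46 members was -0.01, against 0.06 over all genes, and the values ran from -2.07 to 2.54. The median member thus had nearly the same level in HeyC2 TET1 and control. The shares on both sides were above those of other genes, but they rest on few members and were not tested. At 2-fold, 8 members were higher and 2 lower. Some called members reached the mean only through the library where they were high, such as PPAN-P2RY11 (0 FPKM in control and 4.8 in TET1) and GAS1 (1.88 and 0.17). With the GAPDH scaling kept, 60 members were at least 1.5-fold higher, 2 lower, and the median was 1.39.

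The higher side in HeyC2 was led by PPAN-P2RY11 (log2 fold change 2.54) and VANGL2 (1.86), the readthrough transcript and the planar polarity gene described above, both listed at 0 in HeyC2 control. VANGL2 was at an estimated 92.7 fragments in HeyC2 TET1. UCN followed with 1.40, and TMEM163 with 1.35 (an estimated 5.9 fragments in HeyC2 control and 31.7 in HeyC2 TET1). VAMP5, a vesicle fusion protein, was at 0, 2.74, 2.69 and 7.18 FPKM (log2 fold change 1.15 in HeyC2). TSPAN7, a tetraspanin of the cell surface, was at 0.09, 3.85, 1.57 and 4.51 FPKM (1.10). The remaining 6 were HIST1H2BF, STARD4-AS1, CCR10, HIST1H2BJ, MEX3B (an RNA-binding protein) and EDARADD (an adaptor of ectodysplasin signalling), with log2 fold changes of 0.80 to 1.12.

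The lower side in HeyC2 was led by HIST1H2AI, at 5.24 FPKM in HeyC2 control and 0.49 in HeyC2 TET1 (an estimated 12.5 and 1 fragments, log2 fold change -2.07). GAS1, a surface coreceptor of Hedgehog signalling, was at 0.05, 2.2, 1.88 and 0.17 FPKM, with a log2 fold change of -1.30 in HeyC2. The other 8 had log2 fold changes between -0.78 and -0.60. Among them, AASS, an enzyme of lysine breakdown, was at 0.1, 1.68, 7.89 and 4.42 FPKM, and ZNF462, a zinc finger protein, at 0.05, 1.26, 4.99 and 2.94. SSPN (sarcospan), DEF6, CFAP45, FAM78B, RGMB-AS1 and CHURC1-FNTB were the rest. In all 10, the level in HeyC2 control was above that in HeyC2 TET1, while by the rule the SKOV3 levels ran the other way, but with the GAPDH scaling kept 8 of the 10 were higher in HeyC2 TET1.

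**Figure D5:**
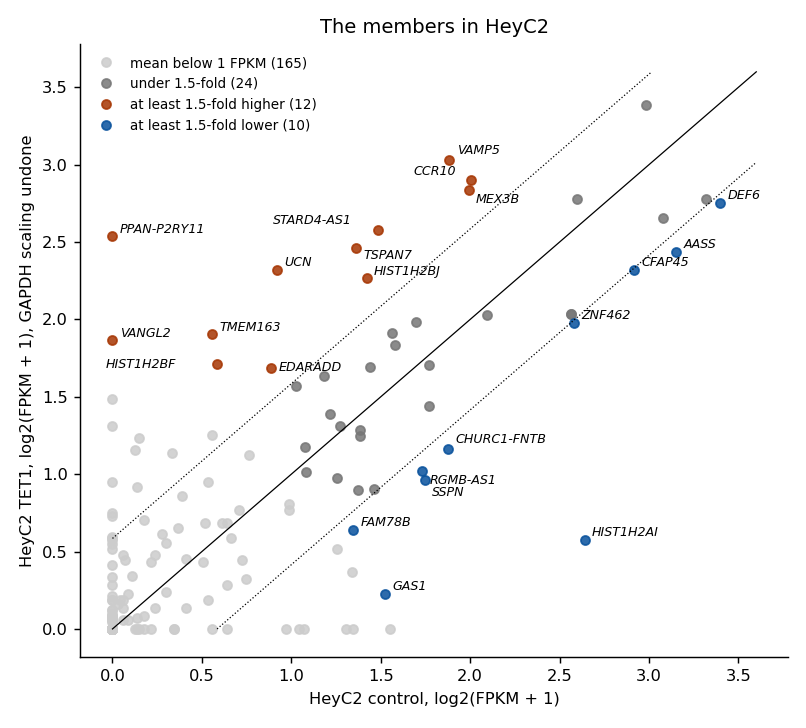
Level of each of the 211 members in HeyC2 control (horizontal axis) and HeyC2 TET1 (vertical axis), both as log2(FPKM + 1), with equality as a solid line and a 1.5-fold difference as dotted lines. The 12 members at least 1.5-fold higher and the 10 at least 1.5-fold lower are named, and 165 had a mean below 1 FPKM.

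The same switch limits were applied to HeyC2. Both lists held 5 genes, which is 2.37% of the 211 members and 5.49% of the 91 genes switched on in HeyC2: GIPR, LINC00106, LOC100134317, PPAN-P2RY11 and VANGL2. Of all genes silent in HeyC2 control, 0.739% were switched on there. The 2.37% has another base, since members above 0.1 FPKM in HeyC2 control could not be switched on. These include the 47 members at 1 FPKM or above there and others at lower levels, such as UCN (0.89 FPKM). In HeyC2 TET1, VANGL2 had an estimated 92.7 fragments, GIPR 26.1 and LINC00106 1.7, and LOC100134317 had no estimate. The level of PPAN-P2RY11 depends on how reads were divided between transcript forms. Another 5 members were switched off in HeyC2 by the mirrored limits (12.8% of those 39 genes, and 2.37% of the members): EGFL8, GBAT2, KISS1, OR2A1-AS1 and SCARNA17. Of all genes silent in HeyC2 TET1, 0.33% were switched off there, again a share with another base than the 2.37%. The level of none of these 5 exceeded 1.93 FPKM in HeyC2 control. Their estimated fragments there ran from 0.6 (SCARNA17) to 9.1 (EGFL8), so these calls rest on few fragments.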

How the data were processed

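The labels and methods state that paired-end TruSeq libraries were aligned to hg19 with Bowtie2 2.2.6 and quantified with RSEM 1.2.17. The deposited values are FPKM per gene symbol, 1 table per cell line. That each TET1 library had been multiplied by a constant that equalises GAPDH was inferred from the values, and no source used here names this scaling. Values are rounded to 0.01 FPKM, so the constants were recovered from the spacing of the values (100% and 99.8% of values up to 40 FPKM lay on the grid) and undone. Fragment numbers were estimated from the smallest FPKM of genes with 1 transcript and are approximate. Read totals, filters and annotation are not given in the sources used here.

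Fold changes are log2((TET1 + 1)/(control + 1)) for genes with a mean of at least 1 FPKM. With 1 library per group no test was run and no p-value or error is given. Coordinates, lengths and start windows came from GENCODE on GRCh37 (201 of 211 members), and printed windows from RefSeq on GRCh38.p14 (124 members listed under their deposited symbol). The 10 members without coordinates are in no count that needs length, position or sequence.

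The members and all lists were chosen with earlier results of these data known. Named genes are the 30 with the highest level and at least 10 estimated fragments, up to 4 of each family, those 1.5-fold different in HeyC2, those near a threshold or within 200 kb of another, TET1, GAPDH and the growth hormone genes. Family lists were set by symbol. The order of the noncoding family, the functional groups, the related genes (Wnt, Notch, collagen, copies, partners) and further members named in them were added after values were seen. Some items are not reported here. The calculations were tested on simulated data. Python 3.11.15, numpy 2.4.6, pandas 2.3.3 and matplotlib 3.10.9 were used.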

Additional observations from a re-analysis of the deposited data

Results flagged for a closer look

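Of the members, 10 were at least 1.5-fold lower in HeyC2 TET1. The rule chose all members for a higher level in SKOV3 TET1, so any member lower in HeyC2 TET1 differs in direction by construction. They are 10 of 46 members with a mean of at least 1 FPKM in HeyC2 (21.7%). The share was 7.41% of all such genes and 8.93% of those with a mean from 1 to 10 FPKM. With the GAPDH scaling kept, 8 of the 10 were higher. HIST1H2AI had an estimated 3.2 fragments in SKOV3 TET1 and 1 in HeyC2 TET1. Each line has 1 library per group and the difference between lines was not tested. The HeyC2 log2 fold changes were -2.07 for HIST1H2AI, -1.30 for GAS1, -0.78 for SSPN, -0.71 for AASS, -0.71 for CHURC1-FNTB, -0.71 for RGMB-AS1, -0.70 for FAM78B, -0.64 for DEF6, -0.60 for ZNF462 and -0.60 for CFAP45.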

How the results depend on the processing

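No paired analysis was possible because the labels carry no replicate numbers and each group has 1 library, which also leaves no replicate to leave out. The number of members, 211, became 318 with FPKM as deposited, 393 as TPM, 135 with silent set to 0 FPKM and 75 with a level of at least 2 FPKM. The genes switched off in SKOV3 (84) became 154 as TPM, 52 with at least 10 estimated fragments and 27 at 2 FPKM. Those switched on in HeyC2 (91) became 453 as deposited, 178 as TPM, 57 with 10 fragments and 31 at 2 FPKM, and those switched off there (39) became 95, 21 and 12 as TPM, with 10 fragments and at 2 FPKM. By construction, TPM exceeds FPKM in every library here, and the deposited scaling raises each TET1 library. For HeyC2 the members at least 1 FPKM in TET1 (46) became 83 as deposited. Members called higher there (12) became 60 as deposited, 24 with no filter and 20 as TPM, and those called lower (10) became 2 as deposited, 19 with no filter, 17 with a mean of at least 0.5 FPKM, 22 as TPM and 2 at 2-fold. The median log2 fold change in HeyC2 was 1.39 as deposited. As deposited, 8 of the members called lower had the opposite sign: 0.78 for AASS, 0.88 for CFAP45, 0.45 for CHURC1-FNTB, 0.89 for DEF6, 0.15 for FAM78B, 0.38 for RGMB-AS1, 0.28 for SSPN and 0.81 for ZNF462. GAS1 (-0.89) and HIST1H2AI (-1.27) stayed lower.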
